A study of Homo sapiens with 3 samples.

Results

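The zinc finger genes with the symbols ZNF1 to ZNF299 were read on 3 arrays of HEK293T, a human embryonic kidney cell line with the large T antigen of SV40. They are every probe set whose single annotated symbol lies between ZNF1 and ZNF299, with at most 1 letter after the number. The rule itself uses no measured value, but its range of names was chosen with earlier results of these data known. This gave 135 probe sets for 105 genes, out of 22277 probe sets on the array and 19070 with a single symbol. Of the 105 genes, 102 are protein-coding in the GRCh38.p14 gene table and 3, ZNF137P, ZNF204P and ZNF271P, are transcribed pseudogenes. All cells were transfected with dCas9VP160, a nuclease-dead Cas9 joined to an activation domain, and the arrays differed in the guide RNA: sgTetOmut, a mutated control guide without a target, sgTetO, against the TetO promoter, and sgIL1RN1~3, against the promoter of IL1RN. No labelled group lacks dCas9VP160, and the labels give no share of transfected cells and no time after transfection. Each guide had 1 array. No difference below therefore has a replicate check, no p-value is given, and the number of arrays limits the precision. In a whole culture, a change in fewer cells and a smaller change per cell cannot be told apart.

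Most ZNF proteins of this numbering carry tandem C2H2 zinc fingers, small folds held by a zinc ion that read short DNA sequences. Many also carry a KRAB domain, which recruits the scaffold TRIM28 and, through it, the histone methyltransferase SETDB1 and HP1 proteins to silence chromatin, and these are best known for repressing transposable elements. Others carry a SCAN domain, by which the proteins pair, or no such domain and act as activators or structural factors. The genes lie in clusters of duplicated copies, above all on chromosome 19, and their probes can share transcripts.

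The promoters of 5 members are shown because the results turn on them: ZNF10, ZNF180, ZNF235 and ZNF268, the genes with a probe set at least 1.5-fold lower on sgIL1RN1~3 than on both control arrays, and ZNF24, for comparison, whose 3 probe sets went different ways. Each run is the 250 bases before the gene's start, 5′ to 3′ on the gene's strand, from RefSeq (GRCh38.p14), and capitals mark matches on either strand to the motifs given with the promoter results at the end.
ZNF10, chr12:133130377-133130626, plus strand: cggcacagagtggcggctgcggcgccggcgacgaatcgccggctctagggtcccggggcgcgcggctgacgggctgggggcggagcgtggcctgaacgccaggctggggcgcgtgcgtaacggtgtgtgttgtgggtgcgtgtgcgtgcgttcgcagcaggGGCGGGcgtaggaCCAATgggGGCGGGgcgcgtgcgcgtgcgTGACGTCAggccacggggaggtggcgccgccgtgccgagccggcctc
ZNF268, chr12:133181245-133181494, plus strand: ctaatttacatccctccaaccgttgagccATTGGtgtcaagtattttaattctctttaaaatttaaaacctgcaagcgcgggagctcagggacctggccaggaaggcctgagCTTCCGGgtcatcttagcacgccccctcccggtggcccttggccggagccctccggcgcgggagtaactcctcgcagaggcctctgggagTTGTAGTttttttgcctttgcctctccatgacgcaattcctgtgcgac
ZNF180, chr19:44500523-44500772, minus strand: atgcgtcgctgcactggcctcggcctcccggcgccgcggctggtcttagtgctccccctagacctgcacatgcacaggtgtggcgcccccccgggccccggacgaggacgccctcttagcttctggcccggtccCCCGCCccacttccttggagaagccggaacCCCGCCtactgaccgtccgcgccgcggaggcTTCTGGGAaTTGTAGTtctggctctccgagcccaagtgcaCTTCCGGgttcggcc
ZNF235, chr19:44305026-44305275, minus strand: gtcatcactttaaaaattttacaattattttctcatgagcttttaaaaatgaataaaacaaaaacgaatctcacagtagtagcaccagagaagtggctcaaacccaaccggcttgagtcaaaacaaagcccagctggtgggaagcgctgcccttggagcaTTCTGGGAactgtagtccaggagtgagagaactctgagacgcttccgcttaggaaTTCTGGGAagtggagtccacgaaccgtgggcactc
ZNF24, chr18:35344421-35344670, minus strand: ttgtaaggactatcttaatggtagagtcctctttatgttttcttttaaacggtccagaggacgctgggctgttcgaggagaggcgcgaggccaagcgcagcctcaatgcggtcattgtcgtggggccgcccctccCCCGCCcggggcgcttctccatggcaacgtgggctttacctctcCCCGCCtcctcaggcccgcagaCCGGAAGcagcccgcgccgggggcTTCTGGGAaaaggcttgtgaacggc
ZNF10 and ZNF268 are next to each other among the protein-coding genes at the end of chromosome 12. ZNF180 and ZNF235 belong to the ZNF45 cluster of chromosome 19, separated by ZNF112, ZNF285 and ZNF229. ZNF235 was the poorest in CpG of the printed promoters, with 7 CpG dinucleotides against 13 to 40.

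The values are log2 levels as deposited. A set was taken as above background on an array when it exceeded the highest of 27 chip controls for Bacillus subtilis transcripts, which human RNA should not bind. That value was 3.29 on sgTetOmut and 3.40 on sgTetO and sgIL1RN1~3. Brightness depends on the probes of a set, so levels of different sets are not an order of transcript amounts. The median level of the 135 sets was 5.75 on sgTetOmut, 5.77 on sgTetO and 5.49 on sgIL1RN1~3, and that of all 19070 sets was 5.49, 5.46 and 5.50. Above background were 109 sets (80.7%) on sgTetOmut, 107 (79.3%) on sgTetO and 105 (77.8%) on sgIL1RN1~3, against 73.9%, 71.7% and 72.5% of all sets. On all 3 arrays 104 sets of 85 genes were above it (77.0%, against 70.6% of all sets). A further 6 sets were above it on 1 or 2 arrays, and 25 sets on none. For 16 of the 105 genes no set was above background on any array.

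**Figure D1:**
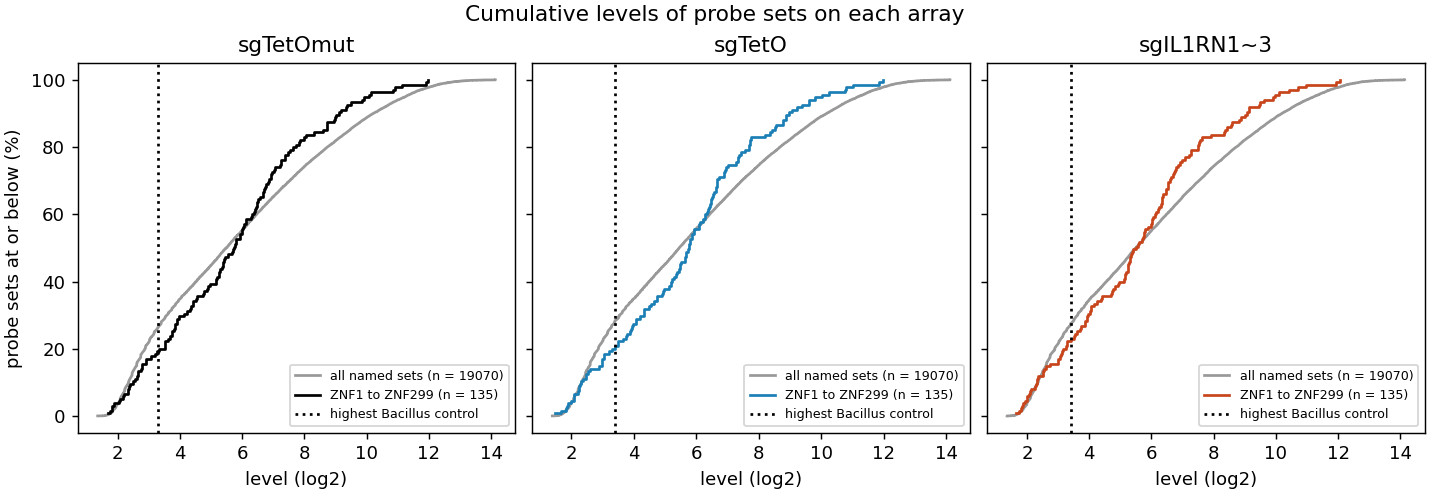
Cumulative share of probe sets (vertical axis, percent) at or below each log2 level (horizontal axis) on the 3 arrays, for the 135 sets of ZNF1 to ZNF299 and for all 19070 named sets, with the highest Bacillus control dotted. The curves of the ZNF sets lie below the grey ones at the dotted line, where 77.8% to 80.7% of the ZNF sets are above background, and above the grey ones at high levels.

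All 10 sets for VIM, KRT8, KRT18, NEFL, NEFM, PAX2 and LHX1, genes read here as HEK293T markers, were above background on every array. The blood marker PTPRC, the endothelial marker VWF and the liver marker ALB were at background in every set. Of all the sets, 2 of 8 for blood, 1 of 5 for endothelium, 7 of 11 for fibroblast and muscle and 4 of 9 for liver were above background on all 3 arrays. These were sets of CD14, HBB, CDH5, COL1A1, COL3A1, DES, ACTC1, APOA1 and TF. The brightest read 7.08, 7.14 and 7.30 on sgTetOmut, sgTetO and sgIL1RN1~3 for COL1A1, and 7.16, 7.06 and 7.16 for COL3A1. Some HEK293T markers were dimmer, with KRT8 at 3.95, 3.95 and 4.32 and LHX1 at 3.64, 3.51 and 3.51. Between the 3 arrays the log2 of the summed level ranged from 6.03 to 6.12 for the blood list, 5.32 to 5.51 for endothelium, 8.56 to 8.65 for fibroblast and muscle, 6.51 to 6.61 for liver and 11.8 to 12.1 for HEK293T, and these sums are not comparable between lists. Interferon genes were high on sgTetOmut: 7 of 9 sets of a short list exceeded sgTetO and sgIL1RN1~3 by 1.5-fold or more. On sgIL1RN1~3 the 5′ chip controls of ACTB and GAPDH, which track RNA integrity and labelling, were 0.82 and 0.66 above sgTetOmut and 0.95 and 0.84 above sgTetO, while their 3′ controls differed by 0.07 at most. Their part in the results on that array was not tested.

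The 10 brightest sets came from 9 genes. ZNF22, a zinc finger gene expressed in tooth development, read 11.97 on sgTetOmut, 11.98 on sgTetO and 11.95 on sgIL1RN1~3 with 218005_at. ZNF24, a SCAN domain factor, read 11.92, 11.85 and 12.05 in the same order with 212534_at, and 10.07, 10.02 and 9.97 with 203247_s_at. On these 3 sets the arrays differed by at most 0.20 log2 units. A dimmer ZNF24 set, 203248_at, read 5.92, 5.73 and 5.39, which is -0.53 relative to sgTetOmut. ZNF207, also called BuGZ, a spindle assembly protein, read 11.14, 11.03 and 10.96 with 200829_x_at. ZNF146, made almost only of zinc fingers, read 10.86, 10.79 and 10.70. ZNF107, a zinc finger gene of chromosome 7, read 10.90, 10.76 and 10.41, the lowest value being that of sgIL1RN1~3. ZNF292, a large protein counted among tumour suppressors, read 10.13, 10.24 and 10.11 with 212366_at. ZNF106 read 9.91, 9.81 and 9.91, ZNF140, a KRAB repressor, 9.84, 9.61 and 9.49, and ZNF236 9.50, 9.61 and 9.63 with 47571_at. Of these 10 sets, ZNF107 and ZNF140 were furthest below sgTetOmut on sgIL1RN1~3, with differences of -0.49 and -0.35, and the others lay between -0.18 and 0.13.

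The control guides were set against each other first. The median difference of sgTetO minus sgTetOmut was -0.0038 log2 units over the 104 sets above background on all 3 arrays, against -0.02 over all 13454 such sets, and 52 sets were lower (54.3% of all such sets), 47 higher (39.7% of all such sets) and 5 equal. This median near 0 holds members that went opposite ways by level. In the 35 sets of lowest mean level the median was 0.10, against 0.00 over all sets in that level range. Of these 35, 24 were higher and 8 lower (22.9%, against 45.6% of all sets in that range). In the middle 34 and the highest 35 sets the median was -0.05 and -0.07, against -0.0076 and -0.03 over all sets in those ranges. There 64.7% and 62.9% were lower, against 51.5% and 60.9% of all sets. The share in the highest group was thus near that of all sets. At least 1.5-fold higher on sgTetO was 1 of 135 sets (0.341% of all 19070 sets), and at least 1.5-fold lower was 1 (0.991% of all sets). No member differed by 2-fold (0.0157% of all sets were higher and 0.325% lower). On sgTetOmut 0 members were 1.5-fold above both other arrays (0.503% of all sets) and 0 below both (0.0682%), and on sgTetO 0 were below both (0.152%).

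The higher set was that of ZNF254, a KRAB gene of the ZNF91 cluster on chromosome 19, at 4.96 on sgTetOmut, 5.66 on sgTetO and 4.75 on sgIL1RN1~3. It was the 1 member whose sgTetO value exceeded both others by 1.5-fold (0.142% of all sets). The lower set was 204329_s_at of ZNF202, a SCAN and KRAB repressor of lipid genes, at 7.24, 6.54 and 7.08, and it was the sgTetO value that was low. The second ZNF202 set, 204327_s_at, read 9.18, 9.06 and 9.00 and did not show this. Among sets above background on all 3 arrays, the next higher on sgTetO were 214138_at of ZNF79 by 0.51, ZNF117 by 0.51, ZNF34 by 0.47 and ZNF155 by 0.44. The next lower among these sets were the pseudogene ZNF204P at -0.30, ZNF35 and ZNF215 at -0.29 each and ZNF165, a SCAN domain gene known from testis, at -0.26. All of these were under the limit.

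With the IL1RN guides the members were lower as a set, by small amounts. The median difference of sgIL1RN1~3 minus sgTetO was -0.12 log2 units over the 104 sets, with quartiles of -0.33 and 0.00, against 0.02 over all sets. Of the 104 sets 77 were lower (74.0%), 22 higher and 5 equal, while 41.6% of all sets were lower and 54.2% higher. Against sgTetOmut the median was -0.17, with quartiles of -0.31 and 0.00, against 0.00 over all sets, and 77 sets were lower (74.0%, against 46.5% of all sets) and 25 higher (49.9% of all sets). Both comparisons use the sgIL1RN1~3 array, so they are not independent of each other. On that array 69 of the 104 sets had their lowest value (66.3%, against 33.3% of all sets) and 15 their highest (14.4%, against 41.3% of all sets). The highest value was on sgTetOmut for 42 sets (28.4% of all sets) and on sgTetO for 38 (24.4%), and the lowest for 16 sets each (22.5% and 37.5%).

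**Figure D2:**
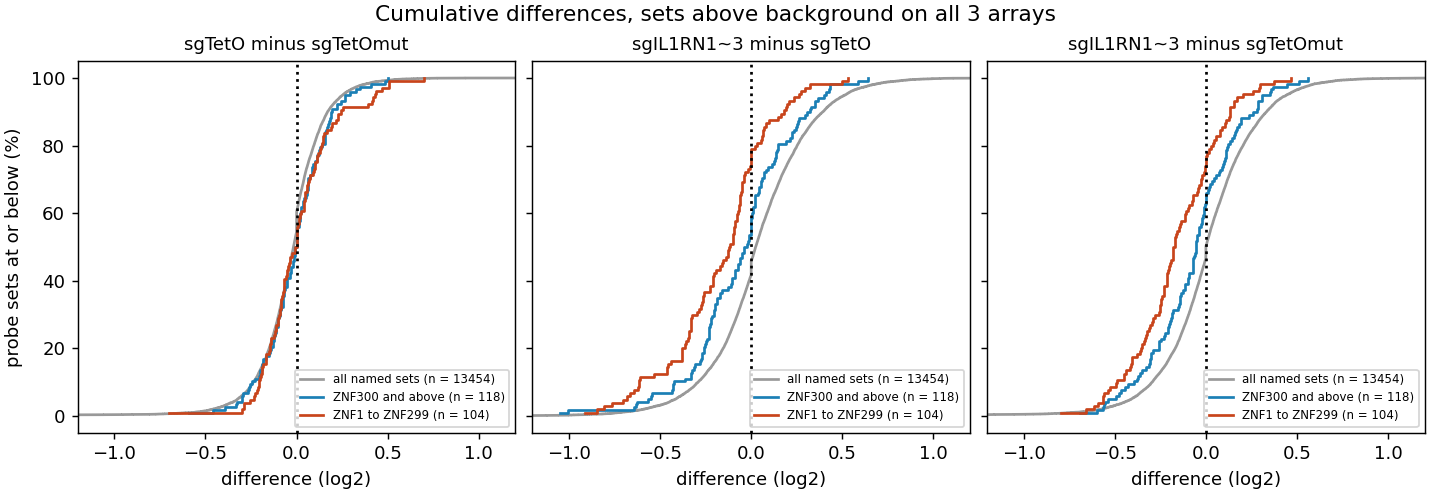
Cumulative share of probe sets (vertical axis, percent) at or below each log2 difference (horizontal axis, drawn from -1.2 to 1.2) for the 3 pairs of arrays, for sets above background on all 3 arrays, with ZNF300 and above in blue. The curves lie close together between the control arrays, and in both pairs with sgIL1RN1~3 the 104 ZNF1 to ZNF299 sets lie to the left, with medians of -0.12 and -0.17 against 0.02 and 0.00 for all 13454 sets.

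The medians were below 0 at low, middle and high levels. The members were split at log2 levels of 5.60 and 6.99 by mean level. In the lowest group the median of sgIL1RN1~3 minus sgTetO was -0.17, against 0.02 over all sets in that level range. In the middle group it was -0.13 against 0.05, and in the highest -0.07 against 0.02. Against sgTetOmut the medians of the 3 level groups were -0.11, -0.24 and -0.17, against 0.03, 0.02 and -0.0087 over all sets of each range. Between the controls, sgTetO minus sgTetOmut, the same groups had medians of 0.10, -0.05 and -0.07. In the highest group the median against sgTetO was thus of the size of the gap between the controls. In the lowest group sgTetO itself lay above sgTetOmut. Sets of ZNF300 and above, the rest of the same naming series, were the most similar group for comparison. Their medians were -0.03 and -0.05 over 118 sets, with 55.1% lower than on sgTetO and 62.7% lower than on sgTetOmut. Over all sets 41.6% and 46.5% were lower. The sgIL1RN1~3 value was the lowest of the 3 in 44.9% of these 118 sets, against 33.3% of all sets. At the edge of the name range, ZNF292 read as given above and ZNF287, by its 216710_x_at set, 3.74, 3.89 and 3.95, while just outside ZNF302 read 9.27, 9.27 and 8.96 and ZNF304 5.27, 5.17 and 4.84.

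At least 1.5-fold lower on sgIL1RN1~3 than on sgTetO were 13 of 135 sets (9.63%, against 1.65% of all 19070 sets), each of a different gene, and 0 were higher (2.59% of all sets). Relative to sgTetOmut 4 sets were lower (2.96%, against 1.57% of all sets) and 0 higher (1.67% of all sets). The same 4 sets were below both controls (0.718% of all sets), and 0 were above both (1.06% of all sets). Of the 165 sets of ZNF300 and above, 5 (3.03%) were lower than on sgTetO by this limit and 2 (1.21%) higher. Lower than on sgTetOmut were 2 of the 165 (1.21%), and below both controls also 2 (1.21%). Low calls above the share of all sets against sgTetO were thus not limited to the members. No member differed by 2-fold in either pair, where 0.168% of all sets were lower and 0.184% higher than on sgTetO, and 0.404% lower and 0.121% higher than on sgTetOmut. Among ZNF300 and above 2 of 165 sets (1.21%) were 2-fold lower than on sgTetO.

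The 4 sets below both controls had control values close to each other. ZNF10, also called KOX1, is the source of the KRAB domain that is fused to dCas9 for gene silencing. It read 4.55 on sgTetOmut, 4.74 on sgTetO and 3.93 on sgIL1RN1~3, which is 1.53-fold and 1.75-fold lower than on sgTetOmut and sgTetO. ZNF268, its neighbour and also a KRAB gene, read 6.40, 6.22 and 5.60, or 1.74-fold and 1.53-fold lower. In both genes the controls differed by under 0.20 and the sgIL1RN1~3 value lay apart from them. ZNF180 read 7.37, 7.33 and 6.72, or 1.57-fold and 1.53-fold lower. ZNF235 read 5.77, 5.86 and 5.18 with 220350_at, or 1.51-fold and 1.60-fold lower. Its other set, 210595_at, read 5.46, 5.53 and 5.26 and was also lowest on sgIL1RN1~3, with differences of -0.20 and -0.26.

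The other 9 sets past the limit against sgTetO were higher on sgTetO than on sgTetOmut, so that sgTetOmut lay between. ZNF254, given above, was furthest apart, at -0.91 relative to sgTetO and -0.21 relative to sgTetOmut. ZNF117, which lies beside the endogenous retrovirus gene ERV3-1, read 4.73, 5.24 and 4.39. ZNF79 read 6.01, 6.52 and 5.75 with 214138_at, but 4.53, 4.95 and 4.83 with 216486_x_at, which was 0.30 above sgTetOmut. ZNF34 read 5.40, 5.87 and 5.17, ZNF155 4.22, 4.66 and 4.01, ZNF195 7.99, 8.22 and 7.55, and ZNF85 6.13, 6.37 and 5.75. In each of these called sets the sgIL1RN1~3 value was the lowest of the 3 and sgTetO the highest. ZNF200 read 7.26, 7.39 and 6.77 with 207338_s_at, where the controls were closer together. Its other set, 214706_at, read 5.54, 5.69 and 5.56, which was 0.02 above sgTetOmut. ZNF234 read 3.67 on sgTetOmut, 3.92 on sgTetO and 3.12 on sgIL1RN1~3. This last value was at background, so its difference is bounded as at least 1.43-fold from sgTetO, and the count against sgTetO is 12 when it is held to that bound.

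**Figure D3:**
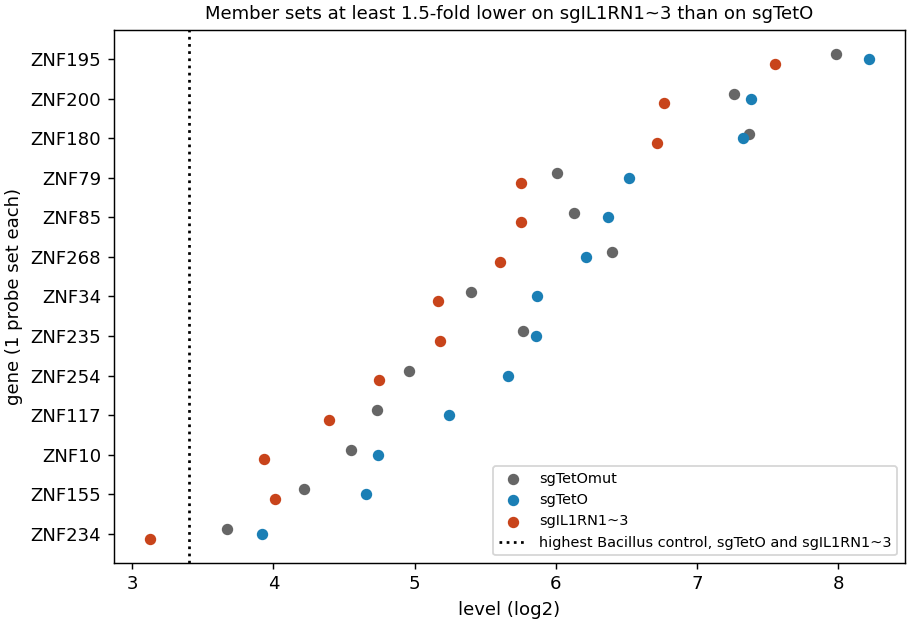
Log2 level (horizontal axis) on the 3 arrays of the 13 ZNF1 to ZNF299 probe sets at least 1.5-fold lower on sgIL1RN1~3 than on sgTetO, 1 row for each gene, with the highest Bacillus control of those arrays dotted. The sgIL1RN1~3 point is leftmost in every row, by which the sets were chosen against sgTetO, and in ZNF254 the sgTetOmut point at 4.96 lies closer to sgIL1RN1~3 (4.75) than to sgTetO (5.66).

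Of the 104 sets, the 22 that read higher than on sgTetO with the IL1RN guides were all under the limit. Furthest above sgTetO among them were 204329_s_at of ZNF202 by 0.53, through its low sgTetO value, and ZNF282 by 0.50. Outside the 104, 216482_x_at of ZNF79 was at background on both controls and read 3.55 on sgIL1RN1~3, at least 1.11-fold above sgTetO. ZNF282, which was described as a repressor of a retroviral promoter, read 5.69, 5.48 and 5.98. ZNF248 read 8.71, 8.54 and 8.87, and ZNF277 8.71, 8.51 and 8.80 with 218645_at. Furthest above sgTetOmut were ZNF276 by 0.46, at 5.26, 5.45 and 5.72, and ZNF12 by 0.37, at 5.94, 6.10 and 6.31. Both were also highest on sgIL1RN1~3, as were ZNF282, ZNF248 and ZNF277.

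Members with described KRAB roles were read from a short list, which leaves out other KRAB genes such as ZNF268, ZNF254 and ZNF140. Of 10 listed genes 8 were measured, by 12 sets, of which 7 were above background on all 3 arrays and 5 on none. Of the 7 sets, 6 were lower than on sgTetO, with a median of -0.09, and 6 lower than on sgTetOmut, with a median of -0.23, where 41.6% and 46.5% of all sets were lower. Of the 12 sets 1, that of ZNF10, passed the limit against each control (1.65% and 1.57% of all sets). ZNF274, which brings SETDB1 to the 3′ ends of ZNF genes, read 7.81, 7.73 and 7.52. ZNF175 read 6.43, 6.29 and 6.20, and ZNF205 7.46, 7.69 and 7.63. ZNF224, a repressor of the aldolase A gene, read 5.28, 5.19 and 4.96 with 220019_s_at, and its other 2 sets were at background. ZNF91 and ZNF93, which repress SVA and LINE-1 elements, were at background on every array, at 2.90, 3.05 and 2.99 for ZNF91 and at 2.61 on all arrays for 208119_s_at of ZNF93. No difference can be read for them.

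The architecture, activator and other factors without a KRAB domain had the medians nearest 0 of the 5 member lists in both pairs with sgIL1RN1~3. Of 17 listed genes 13 were measured, by 21 sets, 19 of them above background on all 3 arrays. Their median was -0.04 against each of sgTetO and sgTetOmut, and 12 of the 19 were lower than on sgTetO and 13 lower than on sgTetOmut (41.6% and 46.5% of all sets). In these pairs 0 of the 21 sets passed the limit, where 1.65% and 1.57% of all sets were lower by it. The member lists share genes, as ZNF24 is also in the SCAN list, so they are not separate groups. Sets of these factors were also brighter, with a median level of 8.51 on sgTetO against 6.54 for the KRAB list. ZNF143, an activator of small nuclear RNA genes and of many promoters, read 7.63, 7.73 and 7.27 with 221873_at. Its difference from sgTetO was -0.46, and its other set was at background. ZNF76, its paralog, read 5.43, 5.34 and 5.25. ZNF217, an oncogene product that works with CtBP and LSD1 corepressors, read 9.38, 9.40 and 9.46. ZNF281 read 7.37, 7.27 and 7.20, and its paralog ZNF148 read 6.67, 6.47 and 6.45 with 203318_s_at. ZNF185, a LIM domain protein of the actin cytoskeleton and no C2H2 factor, read 6.30, 6.10 and 6.34.

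The SCAN domain list had 8 of 11 genes measured. Of its 13 sets above background on all 3 arrays, 9 were lower than on sgTetO and 10 lower than on sgTetOmut (41.6% and 46.5% of all sets), with medians of -0.05 and -0.18. On sgIL1RN1~3 0 of its 15 sets passed the limit against either, where 1.65% and 1.57% of all sets were lower by it. ZNF174 was lower than on sgTetO with all 3 of its sets, at -0.33 to -0.29, while against sgTetOmut they read 0.13, -0.18 and -0.45. ZNF232 read 6.94, 6.96 and 6.63, and ZNF165 6.83, 6.58 and 6.54. ZNF215 read 8.06, 7.77 and 7.91. Here the sgTetO value was the lowest.

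Among the 2 chromosome 19 clusters every set above background on all 3 arrays was lower than on sgTetO. In the ZNF45 cluster 14 of 18 listed genes were measured, by 18 sets. All 11 sets above background on the 3 arrays were lower than on sgTetO, with a median of -0.23, and 10 were lower than on sgTetOmut, with a median of -0.21, where 41.6% and 46.5% of all sets were lower. At least 1.5-fold lower were 4 of the 18 sets against sgTetO, those of ZNF155, ZNF180, ZNF234 and ZNF235, and 2 against sgTetOmut (1.65% and 1.57% of all sets). ZNF225 was at background, 3.28, on sgIL1RN1~3, at least 1.37-fold lower than on sgTetOmut and at least 1.32-fold lower than on sgTetO. ZNF222 read 6.29, 6.35 and 5.89, ZNF226 6.59, 6.43 and 6.33, and ZNF45 itself 9.35, 9.23 and 9.13 with 222028_at. ZNF112 read 7.02, 7.03 and 6.98, so the size was not the same across the cluster. In the ZNF91 cluster 7 of 13 listed genes were measured, and 4 of their 8 sets were above background on the 3 arrays. These were all lower than on sgTetO and on sgTetOmut (41.6% and 46.5% of all sets), with medians of -0.54 and -0.29, and 2 of the 8 passed the limit against sgTetO (1.65% of all sets). Besides ZNF254 and ZNF85 they were ZNF253, at 4.42, 4.32 and 3.86, and ZNF43, at 3.51, 3.51 and 3.42. The sets of ZNF85, ZNF253 and ZNF43 end in _x_at, which marks probes shared between transcripts, so they may not be separate readings. ZNF43 lay close to the background of 3.40 on sgIL1RN1~3, and its difference from each control was only -0.09.

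Chromosome 19 holds 38 of the 105 genes (36.2%, against 6.77% of all named genes). The grouping by chromosome that follows was made after the values were seen. The median of sgIL1RN1~3 minus sgTetO was -0.20 over the 29 sets of chromosome 19 above background. Of these 26 were lower (89.7%, against 41.6% of all sets), 1 higher and 2 equal. The median was -0.08 over the 75 sets on other chromosomes, of which 51 were lower (68.0%). Against sgTetOmut the medians were -0.21 and -0.15, with 86.2% and 69.3% of the sets lower. Sets of chromosome 19 genes without a ZNF symbol read the other way: over 746 such sets the medians were 0.09 and 0.09. Of these 28.2% and 29.1% were lower (41.6% and 46.5% of all sets). For ZNF300 and above on chromosome 19 the medians were -0.14 and -0.12 over 48 sets. On chromosome 19 both groups of ZNF names were thus lower at the median with the IL1RN guides, and genes without a ZNF symbol were higher. The cause was not tested. Between the control arrays the medians were 0.00 for the members on chromosome 19, for ZNF300 and above there and for its other genes.

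**Figure D4:**
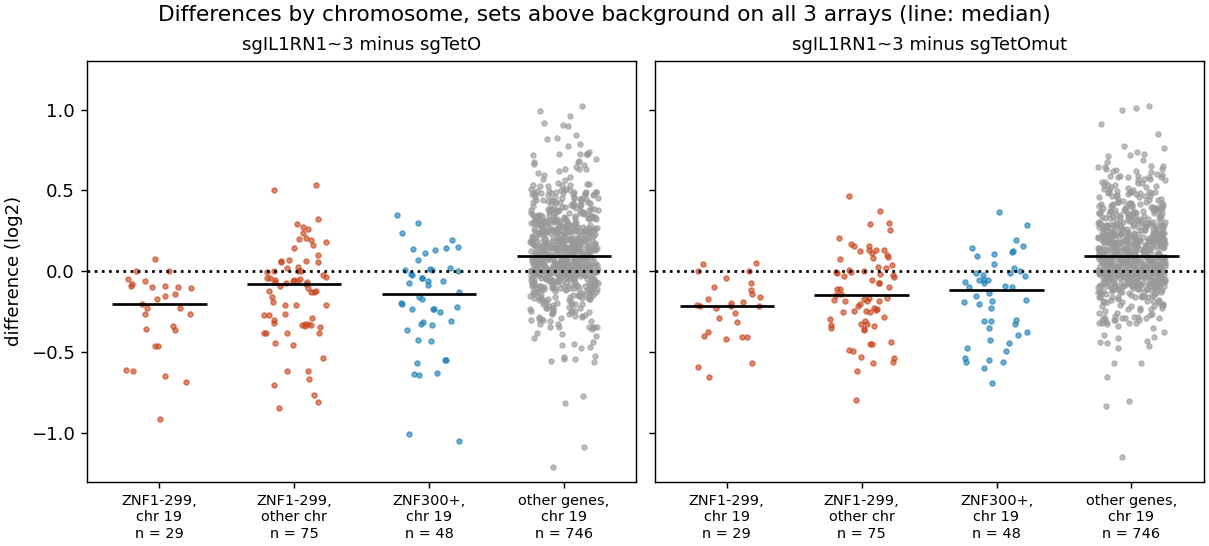
Log2 difference (vertical axis) of sgIL1RN1~3 minus each control array, 1 point for each probe set above background on all 3 arrays, with horizontal lines at the medians and columns for members on chromosome 19, members elsewhere, ZNF300 and above on chromosome 19 and other genes there. Members on chromosome 19 (n = 29) have medians of -0.20 and -0.21, while other genes of the chromosome (n = 746) have 0.09 in both panels; in the right panel 2 of these lie outside the axis.

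The cluster at the end of chromosome 12 had 5 members measured, 1 set each. From the lowest to the highest difference from sgTetOmut they were ZNF268 at -0.80, ZNF10 at -0.62, ZNF140 at -0.35, ZNF84 at -0.33 and ZNF26 at -0.24. Against sgTetO they were -0.61, -0.81, -0.12, -0.33 and -0.08. All 5 were thus lowest on sgIL1RN1~3, as were 33.3% of all sets above background on all 3 arrays. ZNF84 read 6.46, 6.46 and 6.13, and ZNF26 8.59, 8.42 and 8.34. This cluster was singled out after its values were seen.

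Genes with several sets show how far a value depends on the probes. Of the 105 genes 81 had 1 set, 18 had 2 and 6 had 3, and 16 had more than 1 set above background on all 3 arrays. For sgIL1RN1~3 minus sgTetO all such sets of a gene were below 0 in 8 of the 16 genes, above 0 in 0 and of both signs in 8. The sets of a gene differed by a median of 0.33 log2 units and by up to 0.64. The 3 sets of ZNF24 read 0.20, -0.04 and -0.34, and the 3 of ZNF3 read -0.53, -0.21 and 0.03. ZNF79 had 2 sets above background on all arrays, at -0.76 and -0.12. Between the controls the sets of a gene differed by a median of 0.13. Of the 135 sets, 18 have identifiers ending in _x_at and 35 in _s_at, endings that mark probes shared between transcripts, and the medians of sgIL1RN1~3 minus sgTetO were -0.12, -0.15 and -0.10 for these and for the remaining sets, against 0.04, 0.04 and 0.0079 over all sets of each kind.

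**Figure D5:**
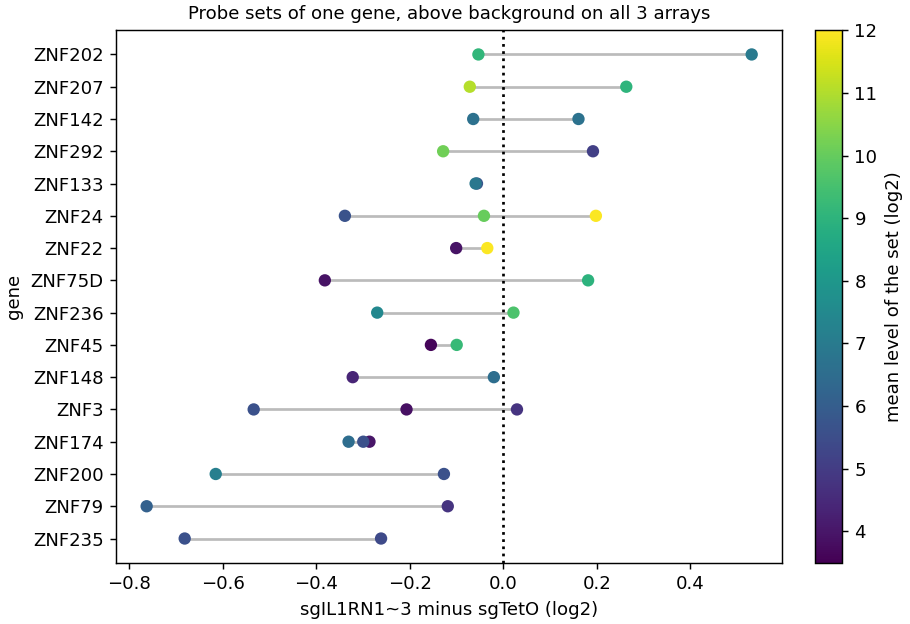
Log2 difference of sgIL1RN1~3 minus sgTetO (horizontal axis) for each probe set of the 16 genes with more than 1 set above background on all 3 arrays, 1 row for each gene, coloured by the mean log2 level of the set. In 8 genes, among them ZNF235, ZNF200 and ZNF174, every set is below 0, in the other 8 the sets have both signs, and in 0 are all above 0.

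The partners of KRAB proteins did not read lower as a set. Of 29 listed genes 27 were measured, by 48 sets, and 0 passed the limit in any pair. Between 0.341% and 2.59% of all sets passed it in each pair and direction, so 0 of 48 is close to those shares. Over the 44 sets above background the median was 0.06 relative to sgTetO and 0.07 relative to sgTetOmut, where it was 0.02 and 0.00 over all sets. Of the 44, 16 were lower than on sgTetO and 14 lower than on sgTetOmut (36.4% and 31.8%, against 41.6% and 46.5% of all sets). TRIM28, the KRAB corepressor itself, read 9.39, 9.48 and 9.87, highest on sgIL1RN1~3 and 0.39 above sgTetO. SETDB1 read 7.70, 7.69 and 7.71 with 203155_at. CBX3, an HP1 protein, read 12.52, 12.50 and 12.37 with 200037_s_at, and CHD3, a helicase of the NuRD complex, 6.15, 6.33 and 6.69 with 208807_s_at. TASOR, of the HUSH silencing complex, read 11.15, 11.11 and 11.33 with 209285_s_at, and HDAC1 10.86, 10.74 and 10.80.

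The promoters were searched on both strands in the 250 bases before the start, with 88 of the 105 genes matched in the RefSeq table. The ETS site CCGGAAG was in 33 of the 88 (37.5%), against 12.8% of 9562 promoters of genes on the array and 8.82% of 27305 promoters in all. It was in 31.8% of those of ZNF300 and above. The letters TTCTGGGA and ACTACAA both belong to the composite site that ZNF143 binds. ACTACAA was in 8 promoters (9.09%, against 3.04% of array genes and 2.64% of all promoters). TTCTGGGA was added to the search after the printed promoters were seen, which hold it in ZNF180, ZNF235 and ZNF24. It was in 19 of 88 promoters (21.6%, against 2.35% of array genes and 2.37% of all promoters), in 16 of the 83 not printed and in 5.61% of ZNF300 and above. On chromosome 19 it was in 11 of 32 members and in 16 of 594 genes without a ZNF symbol.

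The other motifs are given with the shares of array genes and of all promoters. The CCAAT box CCAAT was in 48.9% (35.6% of array genes and 33.0% of all promoters) and the GC box GGCGGG in 54.5% (60.1% and 42.3%). The core TGACGT of cAMP-responsive elements was in 7.95% (9.78% and 7.42%), the NRF1 core in 3.41% (1.65% and 1.13%), and the TATA box TATAAA in 1.14% (7.93% and 11.1%). The single member with TATAAA had no set above background on all arrays. Different motifs can lie over the same bases, as the TGACGT matches on both strands do in ZNF10. ZNF180 and ZNF268 both hold CCGGAAG and ACTACAA on the minus strand of their printed run, ZNF180 with TTCTGGGA just before the second, and ZNF235 holds TTCTGGGA at 2 places.

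For every motif held by a set above background, members with and without it had medians below 0 in both pairs with sgIL1RN1~3. For sgIL1RN1~3 minus sgTetO the median was -0.18 over 36 sets of genes with CCGGAAG and -0.10 over 55 sets of genes without it. It was -0.21 over 36 sets with CCAAT and -0.09 over 55 without. For TTCTGGGA it was -0.13 over 21 sets and -0.10 over 70, and 18 of the 21 and 49 of the 70 were lower (41.6% of all sets). The 21 include sets of ZNF180, ZNF235 and ZNF24, in whose printed promoters TTCTGGGA was first seen. Since ZNF180 and ZNF235 were printed for their low values, this count is not independent of those values. Of the 19 genes with TTCTGGGA 11 are on chromosome 19, against 21 of the 69 without it. The widest gap among motifs with over 5 sets was for TGACGT, at -0.36 over 8 sets, all 8 lower, and -0.09 over 83 without it. A match is a run of letters and not a bound site, and these differences between groups of members were not tested.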

How the data were processed

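Each of 3 HEK293T cultures was measured on 1 single-channel array. The authors deposited log2 values per probe set; the submitters' processing notes name the affy package. Its version, background correction and normalization are not given in these labels. That the scale is log2 was read from the range of the values. The distributions of the 3 arrays were nearly alike, so a difference is relative to the bulk of genes. Of 22277 probe sets, 19070 had 1 symbol in GEO's platform annotation, 1043 had several and were not used, and 2164 were not listed. Chromosomes and biotypes came from the GRCh38.p14 gene table, which held all 105 member genes.

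A set counted when the higher value exceeded the highest Bacillus control on its array and the difference reached 1.5-fold, with 2-fold beside it. Medians were taken over sets above background on all 3 arrays. The named genes were the role lists, the 10 brightest sets, the 5 highest and 5 lowest differences of each pair, genes with 3 or more sets and up to 6 partner genes. The range of names and the lists were chosen with earlier results of these data known. Planned groupings by finger number and KRAB pattern were not made, since no protein sequences were used here. The counting was tested on simulated data, where recovery was required only for drops of 3-fold or more. That test does not show how well differences near 1.5-fold are counted. Alternatives were scaling (limma 3.58.1, R 4.3.3), minimum level, probe set choice, 16 added to linear values and other limits. Other steps used Python 3.11.15, numpy 2.4.6, pandas 2.3.3 and matplotlib 3.10.9.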

Additional observations from a re-analysis of the deposited data

How the results depend on the processing

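The median of sgIL1RN1~3 minus each control over the members stayed below 0 in all 8 alternatives, from -0.16 to -0.07 against sgTetO and from -0.19 to -0.14 against sgTetOmut, and for the members on chromosome 19 from -0.26 to -0.10 and from -0.26 to -0.15. Between the controls it ranged from -0.0693, with the median of named sets as minimum level, to 0.02. The counts moved more. Sets at least 1.5-fold lower on sgIL1RN1~3 than on sgTetO, 13 of 135, were 6 of 82 without _s_at and _x_at sets (1.98% of all such sets). With 16 added to the linear values they were 3 of 135 (0.64% of all sets). Those lower than on sgTetOmut, 4, were 7 with quantile scaling (1.75% of all sets) and 8 with cyclic loess (1.88%). They were 2 of 82 without _s_at and _x_at sets (1.81% of all such sets) and 1 of 135 with 16 added (0.755%). With 16 added the members were thus near the share of all sets. Those below both controls, 4, were 2 without _s_at and _x_at sets (0.851% of all such sets) and 0 with 16 added (0.273%). ZNF202, the 1 set lower on sgTetO than on sgTetOmut, was lost (0) without _s_at and _x_at sets, with 1 set a gene and with the mean of sets. The shares over all were 0.97%, 0.936% and 0.828% in these settings. ZNF254, the 1 set higher on sgTetO, was lost (0) with 16 added (0.0472% of all sets), also against both other arrays (0, against 0.0262%). At limits of 2-fold and 3-fold every count was 0, against at most 0.404% and 0.215% of all sets. With the median Bacillus control as background 94.8%, 96.3% and 94.1% of member sets were above it on sgTetOmut, sgTetO and sgIL1RN1~3 (94.7%, 96.6% and 95.6% of all sets), and with the median of named sets 52.6%, 56.3% and 49.6%. With values at background set to it, an alternative added after the data were seen, 12 sets were lower than on sgTetO (1.48% of all sets). No paired analysis was possible because each group had 1 array. Leaving out a replicate was not possible for the same reason. Signal over background limits the 25 sets at background on all arrays and the 6 above it on 1 or 2.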

Other observations

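Probe sets with several annotated symbols were outside the members, and 8 of them name a gene of ZNF1 to ZNF299. A set shared by ZNF177 and its readthrough transcript with ZNF559 read 5.91 on sgTetOmut, 6.17 on sgTetO and 5.34 on sgIL1RN1~3. A set shared by ZNF280D and a noncoding neighbour read 4.34, 4.61 and 3.90. In both the sgIL1RN1~3 value was the lowest, with differences of -0.82 and -0.72 from sgTetO. The brighter set for ZNF131, a BTB domain zinc finger protein, which shares it with an uncharacterised locus, read 9.37, 9.24 and 9.28, and its other set 5.55, 5.41 and 5.42. The set for ZNF263 read 5.98, 5.90 and 5.79. The sets for ZNF208 and ZNF20 were at background on all 3 arrays, ZNF208 at 1.77 on each of them. A second ZNF43 set, shared with ZNF729, read 4.14, 4.13 and 4.04.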
